A study of Mus musculus with 4 samples.

Results

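The genes described here are 6 serpins that act mainly inside cells: Serpina3g and Serpina3f of clade A, and Serpinb1a, Serpinb6a, Serpinb6b and Serpinb9 of clade B. They were taken by name from 67 serpin rows among the 28032 features with an exon length, and all 6 were found and passed the filter on low counts. The members were selected on earlier values from these tables, the exon reads of the genotypes within each tissue, so the genotype values are given as a description, with no test. Messenger RNA was counted in 4 libraries of CD4+Foxp3+ regulatory T cells (Tregs), the T cells that restrain other immune cells, sorted from C57BL/6 mice aged 8 weeks. Of the 2 genotypes, wild type (WT) and Csnk2b-/-, the second is labelled deficient for Csnk2b, the gene of the regulatory subunit of protein kinase CK2. Each genotype gave 1 library from the spleen (replicate 1) and 1 from the tracheal lymph nodes near the airways (replicate 2). The sources used here do not say how the allele was deleted, in which cells, or whether a library came from 1 animal or a pool. The protocols name different kits for samples 1 and 2 and for samples 3 and 4. If these follow the order of listing, the kit changes with the tissue and cannot be told apart from it.

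Total exon reads ranged from 4737814 to 6750695 per library, and 12157 to 15515 genes had a read, the fewest in WT lymph node Tregs. Csnk2b, the targeted gene, had 649 exon reads (82.3 CPM, counts scaled to library size with TMM factors) in WT and 148 (25.6 CPM) in Csnk2b-deficient spleen, and 667 (163 CPM) and 283 (62.0 CPM) in the lymph node. The deficient library was the lower of each pair, but the transcript was still present in both, and the log2 difference of -1.54 ± 0.26 (SE, n = 2 per genotype) did not pass the threshold (edgeR adjusted p = 0.0658). At like differences it was called by DESeq2 (adjusted p = 0.00567) and limma-voom (adjusted p = 0.00374), but not by edgeR on uniquely placed reads (adjusted p = 0.20). The 6 genes listed as Treg markers were all detected in each library, with a sum of 3509 to 5244 CPM. They include Cd3e and Cd4, which other T cells also express. Among them Foxp3 had 811 and 374 CPM in WT and deficient spleen, and 570 and 123 CPM in the lymph node. Many of its reads had more than 1 placement, and its log2 difference between genotypes was -1.66 on total reads (edgeR adjusted p = 0.0375) but -0.71 on uniquely placed reads (edgeR adjusted p = 0.90). On total reads the call was lost with median-of-ratios size factors (edgeR adjusted p = 0.298) and with upper-quartile scaling (0.0982). A filter at 5 CPM in 2 libraries (edgeR adjusted p = 0.0591) and a fit with genotype as the only term also lost it. DESeq2 (adjusted p = 4.11e-06), limma-voom (adjusted p = 0.000121) and edgeR with no filter except 0 reads kept it. Of 9 neutrophil markers 8 had 0 reads in every library, and the ninth, Ltf, had 1 read. Monocyte and macrophage markers, 8 in the tables, summed to 14.3 and 10.6 CPM in WT and deficient spleen, and to 46.2 and 312 CPM in the lymph node, where Lyz2 alone reached 283 CPM in the deficient library. NK and CD8 T cell markers, 7 in all, summed to 29.2 and 19.2 CPM in the spleen libraries and to 53.8 and 55.0 CPM in those of the lymph node, with Ncr1 and Klra8 at 0 reads in all 4.

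Serpins trap proteases by offering an exposed reactive centre loop as bait. The cut loop inserts into the body of the serpin and holds the protease in a dead complex, so that each serpin molecule works once. Most clade A serpins are secreted, whereas clade B serpins lack a classical secretion signal and stay in the cytosol and nucleus, where they meet proteases that leak from granules and lysosomes. In lymphocytes Serpinb9 is known as the inhibitor of granzyme B, and Serpina3g, also called Spi2A, as an inhibitor of lysosomal cysteine cathepsins. Serpinb1a inhibits neutrophil elastase, cathepsin G and proteinase 3, Serpinb6a inhibits cathepsin G, and Serpinb6b and Serpina3f are paralogs of Serpinb6a and Serpina3g.

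The members lie in 2 gene clusters, given here in mm9 coordinates from the tables. Serpina3f (chromosome 12, 105452754 to 105459339) and Serpina3g (chromosome 12, 105474455 to 105480149) are 15115 bp apart, within a run of 27 clade A serpin rows on that chromosome, of which 10 had any read. On chromosome 13, Serpinb1a (32933961 to 32943054), Serpinb6b (33057078 to 33070936), Serpinb9 (33095119 to 33109826) and Serpinb6a (34009787 to 34094663) stand in this order. Their stretch holds 16 clade B rows, 7 with any read. No other feature overlaps the span of Serpina3g, Serpina3f, Serpinb1a, Serpinb6b or Serpinb9. The listed span of Serpinb6a, 84877 bp long, overlaps 3 features, of which Ripk1 had 236 to 473 exon reads per library, while Nqo2 and 1110046J04Rik did not pass the filter. Of reads assigned to Serpinb6a, 34.9% to 44.9% fell outside its exons, compared with 0% to 25.0% for the other 5 genes.

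Several members are close copies, which bears on how reads can be assigned. The annotated coding sequences (GENCODE M21, GRCm38) of Serpina3g and Serpina3f were identical at 88.4% of 735 aligned bases, and those of Serpinb6a and Serpinb6b at 86.4% of 1127. The closest of 36 other Serpina3 and clade B genes was Serpina3i for Serpina3f (92.1%), Serpinb1b for Serpinb1a (90.9%), Serpinb6c for Serpinb6a and Serpinb6b (87.1% and 87.9%) and Serpinb9b for Serpinb9 (87.1%). Of all 50-base stretches in the coding sequence, 8.49% in Serpina3g and 10.3% in Serpina3f occurred unchanged in another of these genes, compared with 1.21% in Serpinb9. The most alike and the least alike 60-base windows of the Serpina3 pair are shown as places where the 2 genes differ least and most. How reads from these windows were placed was not tested. Capitals mark the bases that differ between the 2 genes, and all 4 windows lie on the plus strand of GRCm38. In the most alike window, 59 of 60 bases were identical.
Serpina3g, chr12:104239145-104239204: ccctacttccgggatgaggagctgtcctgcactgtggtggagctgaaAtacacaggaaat
Serpina3f, chr12:104218316-104218375: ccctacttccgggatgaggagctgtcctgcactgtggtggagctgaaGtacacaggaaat
In the least alike window, near the 3′ end of both coding sequences (bases 645 to 704 of 744 in Serpina3g and 1224 to 1283 of 1335 in Serpina3f), 43 of 60 bases were identical.
Serpina3g, chr12:104241224-104241283: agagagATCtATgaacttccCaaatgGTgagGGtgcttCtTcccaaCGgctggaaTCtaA
Serpina3f, chr12:104220400-104220459: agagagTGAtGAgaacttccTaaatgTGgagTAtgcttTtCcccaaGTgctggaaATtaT

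**Figure D1:**
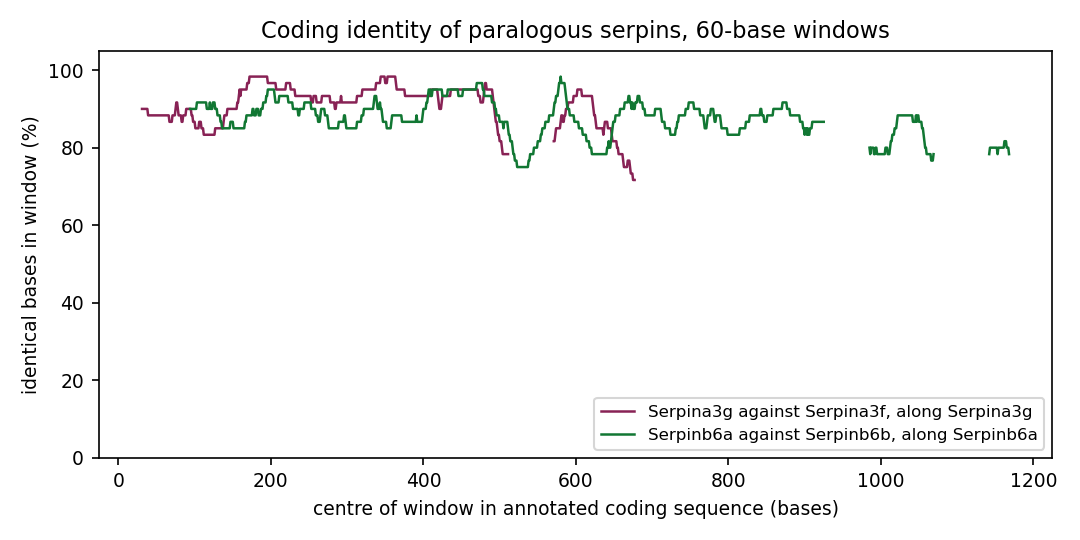
Percentage of identical bases in gap-free 60-base windows along the annotated coding sequences of Serpina3g against Serpina3f and of Serpinb6a against Serpinb6b, with the window centre on the x axis; lines break where the alignment has a gap. Identity of the Serpina3 pair runs from 98.3% down to 71.7% at the 3′ end, and that of the Serpinb6 pair lies between 75.0% and 98.3%.

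In the reads themselves, 84.5% to 85.4% of Serpina3g exon reads were uniquely placed, a share that moved little between libraries. The share was 89.7% to 95.6% for Serpina3f, 88% to 96.1% for Serpinb6a, 92.7% to 100% for Serpinb1a, 95.3% to 96.5% for Serpinb6b and 98.9% to 100% for Serpinb9. Over the exon reads of all genes it was 85.7% and 86.2% in WT and deficient spleen, and 78.3% and 78.9% in the lymph node. Values below rest on total exon reads, multiply placed ones included, unless uniquely placed reads are named.

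Compared per kilobase of exon, the order of the 6 genes was Serpina3g, Serpinb6b, Serpinb9, Serpinb6a, Serpina3f and Serpinb1a in each of the 4 libraries. Serpina3g had 66.8 and 94.1 CPM per kilobase in WT and deficient spleen, and 52.9 and 178 CPM per kilobase in the lymph node. It made up 69.5% and 70.9% of the summed level of the 6 genes in WT and deficient spleen, 41.4% in WT lymph node and 62.6% in deficient lymph node. Neighbours in the order differed beyond counting error (95% exact binomial interval of their ratio) in every library except Serpinb6a and Serpina3f in WT spleen, at a ratio of 1.25 (0.941 to 1.66). Serpinb6a was 1.21 to 1.88 times lower than Serpinb9, and its listed exon length of 5409 bases, the sum over many annotated transcripts, enters its level. These intervals cover counting error only, and PCR duplicates were not told apart.

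**Figure D2:**
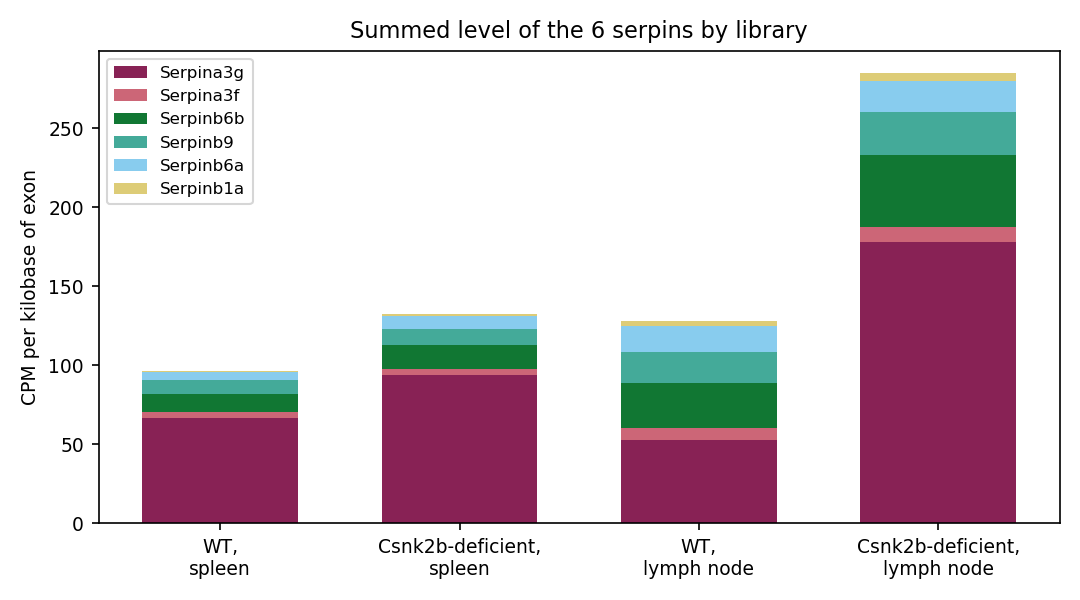
Stacked bars of CPM per kilobase of exon for the 6 serpins in each of the 4 libraries (1 library per bar, no error bars). The bars reach 96.1 and 133 in WT and Csnk2b-deficient spleen, and 128 and 285 in WT and deficient lymph node, and Serpina3g takes the largest part of each.

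Serpina3g was the most abundant member and had the widest gap between the genotypes in the lymph node, whereas in the spleen its ratio was below those of Serpinb6a and Serpinb1a. It had 1214 exon reads (154 CPM) in WT and 1255 (217 CPM) in Csnk2b-deficient spleen Tregs, and 499 (122 CPM) in WT and 1876 (411 CPM) in deficient lymph node Tregs. Both deficient libraries were above both WT libraries, and the lymph node pair was farther apart than the spleen pair. The ratio of deficient to WT was 1.41 in the spleen (95% counting interval 1.30 to 1.53) and 3.37 in the lymph node (3.05 to 3.73). On uniquely placed reads the ratios were 1.41 and 3.33, and on reads that span exon junctions 1.49 (1.14 to 1.94) and 3.84 (2.70 to 5.59). Fitted over both tissues, the log2 difference of deficient over WT was 1.12 ± 0.29 (SE, n = 2 per genotype, 1 library per tissue). The lymph node pair also held the wide gap in monocyte markers given above, from 46.2 to 312 CPM, while these markers were at 14.3 and 10.6 CPM in the spleen pair. Their part in the Serpina3g values was not tested.

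Serpina3f, the neighbour and paralog, was low and did not separate the genotypes. It had 68 exon reads (8.62 CPM) in WT and 45 (7.78 CPM) in deficient spleen, and 68 (16.6 CPM) and 94 (20.6 CPM) in the lymph node. The libraries of the 2 genotypes overlapped, with the tissues rather than the genotypes at the 2 ends. The ratio of deficient to WT was 0.903 in the spleen (0.605 to 1.33) and 1.24 in the lymph node (0.898 to 1.72), so both intervals include 1. The joint log2 difference was 0.08 ± 0.57 (SE, n = 2 per genotype). With 1 library left out, in fits without the tissue term, it ran from -0.65 (without the deficient lymph node library) to 0.74 (without the WT lymph node library). Junction reads numbered 8, 5, 3 and 2, too few for a ratio.

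**Figure D3:**
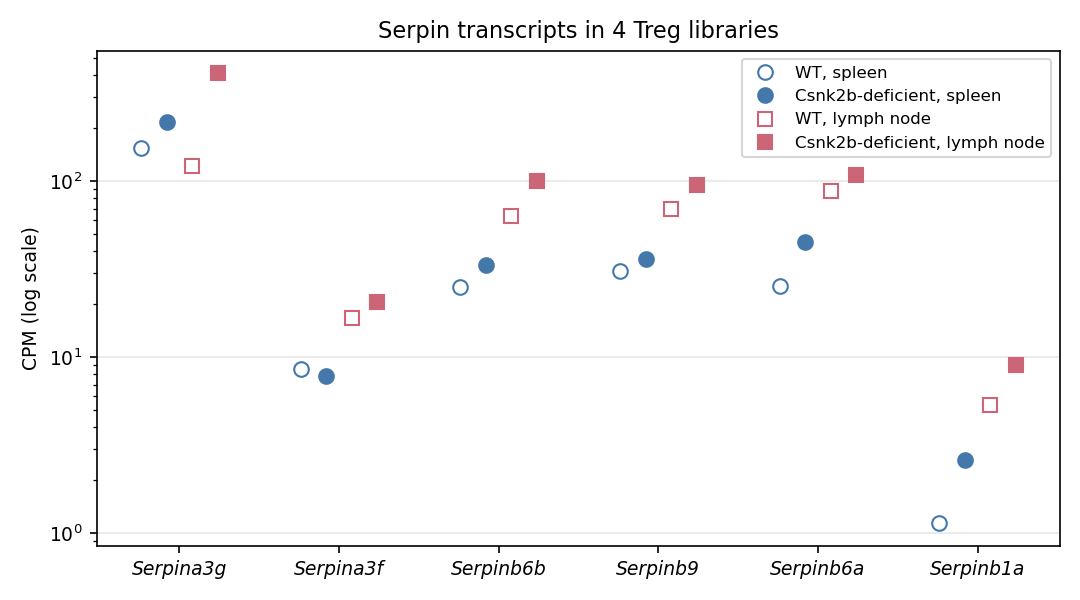
CPM on a log scale for each serpin in each of the 4 libraries (1 point per library; open symbols WT, filled symbols Csnk2b-deficient, circles spleen, squares lymph node). For Serpina3f and the 4 clade B genes both lymph node points lie above both spleen points, whereas for Serpina3g the WT lymph node point, at 122 CPM, is the lowest of the 4.

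Among the clade B members, Serpinb9, the granzyme B inhibitor, was the higher in the deficient library of each pair. It had 243 exon reads (30.8 CPM) in WT and 210 (36.3 CPM) in deficient spleen, and 283 (69.2 CPM) and 435 (95.4 CPM) in the lymph node. The genotypes overlapped across tissues, with both spleen libraries below both lymph node libraries. The ratio was 1.18 in the spleen (0.975 to 1.42), an interval that includes 1, and 1.38 in the lymph node (1.18 to 1.61). Junction reads gave 1.94 (1.04 to 3.69) for spleen and 1.21 (0.745 to 1.97) for lymph node. The joint log2 difference was 0.35 ± 0.29 (SE, n = 2 per genotype). Its sign turned with 1 library left out, in fits without the tissue term: it was -0.42 without the deficient lymph node library, -0.05 without the WT spleen library, 0.93 without the deficient spleen library and 1.12 without the WT lymph node library.

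Serpinb6b had 199 exon reads (25.2 CPM) in WT and 193 (33.4 CPM) in deficient spleen, and 259 (63.3 CPM) and 459 (101 CPM) in the lymph node. Again the deficient library was the higher one in each tissue, at ratios of 1.32 (1.08 to 1.62) and 1.59 (1.36 to 1.86). On junction reads they were 1.96 (1.11 to 3.49) and 1.63 (1.05 to 2.58). The joint log2 difference was 0.54 ± 0.30 (SE, n = 2 per genotype). In fits without the tissue term it turned to -0.36 without the deficient lymph node library, and was 0.10 without the WT spleen, 1.19 without the deficient spleen and 1.44 without the WT lymph node library.

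Its paralog Serpinb6a, an inhibitor of cathepsin G, had 200 exon reads (25.4 CPM) in WT and 261 (45.1 CPM) in deficient spleen, and 361 (88.2 CPM) and 493 (108 CPM) in the lymph node. Unlike Serpina3g, it had the wider gap in the spleen, with a ratio of 1.78 (1.47 to 2.15) compared with 1.22 (1.07 to 1.41) in the lymph node. The joint log2 difference was 0.56 ± 0.28 (SE, n = 2 per genotype). Without the tissue term it turned to -0.28 when the deficient lymph node library was left out and to -0.19 without the WT spleen library, and was 0.93 without the deficient spleen and 1.62 without the WT lymph node library. On junction reads alone the ratios were 2.16 (1.40 to 3.37) and 1.49 (1.09 to 2.04). Ripk1, whose span overlaps that of Serpinb6a, had 59.99 and 72.0 CPM in WT and deficient spleen, and 57.7 and 62.0 CPM in the lymph node.

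Serpinb1a, the inhibitor of neutrophil proteases, was close to the limit of detection. It had 9 exon reads (1.14 CPM) in WT and 15 (2.59 CPM) in deficient spleen, and 22 (5.38 CPM) and 41 (8.99 CPM) in the lymph node. The ratios of 2.27 (0.932 to 5.89) and 1.67 (0.973 to 2.95) have intervals that include 1, so a genotype gap was not detectable at this depth. The joint log2 difference was 0.94 ± 1.08 (SE, n = 2 per genotype). In fits without the tissue term it turned to -0.27 without the deficient lymph node library, and was 0.12 without the WT spleen, 1.47 without the deficient spleen and 2.35 without the WT lymph node library.

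**Figure D4:**
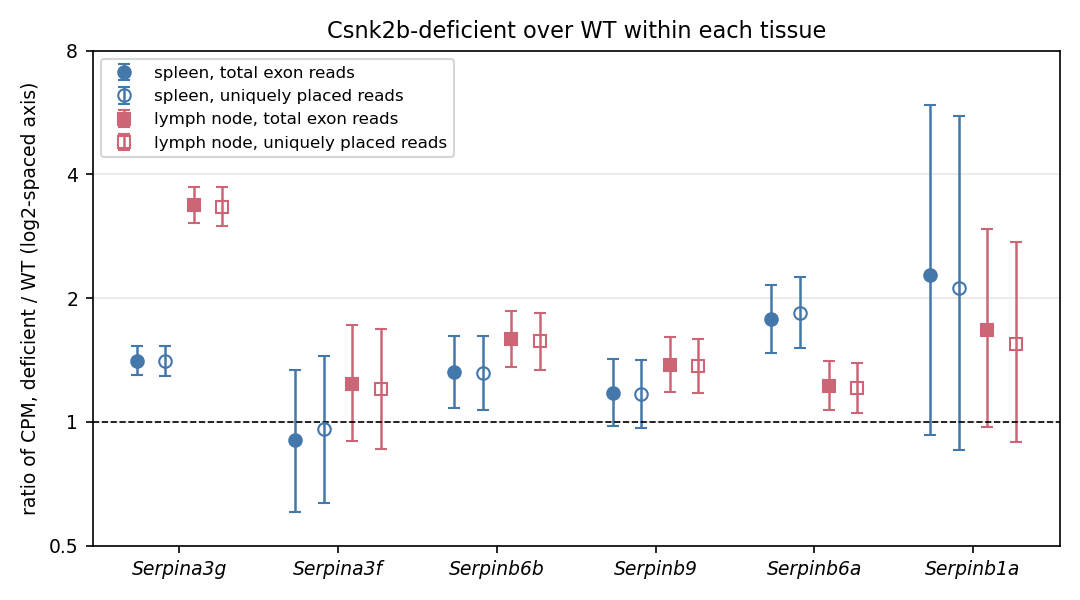
Ratio of CPM in Csnk2b-deficient over WT Tregs within the spleen (circles) and the lymph node (squares), on total exon reads (filled) and uniquely placed reads (open); the axis is log2-spaced, and bars are 95% exact binomial intervals that cover counting error only. Total and unique reads give like ratios, and Serpina3g in the lymph node, at 3.37, stands highest.

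Counted together, 5 of the 6 genes were higher in the deficient library of both pairs, compared with 27.5% of all 11113 genes tested. The exception was Serpina3f. Over all genes edgeR called 0.126% higher and 0.018% lower in deficient Tregs. The median of the joint log2 difference was 0.55 over the 6 and 0.01 over all genes tested, with medians of 0.45 for the spleen pair and 0.56 for the lymph node pair. Since these differences chose the members, nothing is read from the counts.

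The lymph node and the spleen were compared in the same fit, a contrast other than the genotype values that chose the members. It rests on the same libraries, and earlier results from them were known, so its p-values are no independent check. By edgeR's quasi-likelihood test, with Benjamini-Hochberg adjustment over all genes, 3 of the 6 serpins rose in the lymph node and 0 fell. Among all genes 23.3% were called higher and 22.2% lower. Serpinb6a rose by 1.53 ± 0.29 on the log2 scale (SE, n = 2 per tissue, edgeR adjusted p = 0.00131), Serpinb6b by 1.46 ± 0.30 (edgeR adjusted p = 0.00217) and Serpinb9 by 1.28 ± 0.29 (edgeR adjusted p = 0.00408). In these 3 genes each lymph node library was above each spleen library, and 5 of the 6 serpins were higher in the lymph node of both genotypes, compared with 38.7% of all genes. Within WT the ratio of lymph node to spleen was 3.48 for Serpinb6a (2.92 to 4.16), 2.51 for Serpinb6b (2.08 to 3.03) and 2.24 for Serpinb9 (1.88 to 2.68). Within deficient Tregs the ratios were 2.39 (2.06 to 2.79), 3.01 (2.54 to 3.59) and 2.63 (2.22 to 3.11). Without the WT spleen library, in a fit that also lacks the genotype term, where the spleen is 1 deficient library, these 3 calls were lost, with edgeR adjusted p = 0.134, 0.121 and 0.147, and Serpinb9 also lost its call without the deficient spleen library (edgeR adjusted p = 0.0808).

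The other 3 serpins did not pass the threshold between tissues. Serpina3f had a log2 difference of 1.17 ± 0.57 (SE, n = 2 per tissue, edgeR adjusted p = 0.118) and Serpinb1a 1.99 ± 1.10 (edgeR adjusted p = 0.163), and both had lymph node values above the spleen values in both genotypes. Serpina3g had 0.30 ± 0.28 (edgeR adjusted p = 0.411). Its lymph node to spleen ratio was 0.792 in WT (0.712 to 0.880) and 1.89 in deficient Tregs (1.76 to 2.04), so the directions were opposite in the 2 genotypes beyond counting error. With 1 library per genotype and tissue, this difference between genotypes has no replicate check and was not tested. Leaving out a lymph node library leaves that tissue with 1 library of 1 genotype, which is assumed to vary like the 2 spleen libraries, so that genotype and tissue are not separated. Without the WT lymph node library, in such a fit without the genotype term, Serpina3g was called at 1.17 (edgeR adjusted p = 0.00998), Serpina3f at 1.35 (edgeR adjusted p = 0.00908) and Serpinb1a at 2.31 (edgeR adjusted p = 0.0219). Without the deficient lymph node library Serpina3g stood at -0.65 (edgeR adjusted p = 0.0784) and Serpina3f was called at 0.97 (edgeR adjusted p = 0.0336). Beside these tissue values, B cell markers summed to 28.2 and 32.2 CPM in WT and deficient spleen and to 168 and 116 CPM in the lymph node, mostly from Cd79b, while Pax5 had 0 reads in every library. Dendritic cell markers summed to 3.42 and 7.44 CPM in the spleen and to 19.3 and 23.9 CPM in the lymph node. Zbtb46 and Xcr1 made up most of the sum in each lymph node library. From WT spleen to WT lymph node Itgax went from 0.127 to 0 CPM, Siglech from 0.254 to 0 and Cd209a from 0.254 to 0. Flt3 had 0 reads in both WT libraries. Between the deficient libraries Itgax rose from 0 to 0.658 CPM and Siglech from 0 to 3.07. Flt3 went from 0.173 to 0 there, and Cd209a had 0 reads in both. The sum of the NK and CD8 T cell markers given above was also higher in both lymph node libraries than in both spleen libraries, mostly from Cd8b1. Its members did not all rise. In WT, from spleen to lymph node, Eomes went from 4.95 to 0 CPM, Prf1 from 3.04 to 0 and Klrb1c from 4.82 to 1.22. In deficient Tregs these genes were higher in the lymph node. The part of these markers in the tissue values was not tested.

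**Figure D5:**
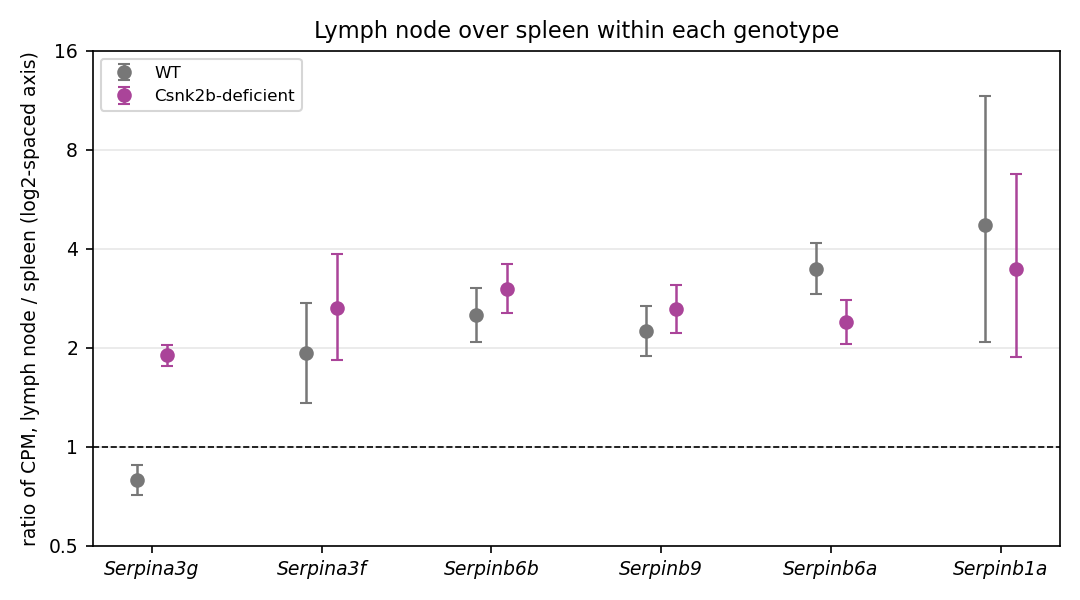
Ratio of CPM in lymph node over spleen Tregs within WT and within Csnk2b-deficient mice for the 6 serpins, on a log2-spaced axis with 95% exact binomial intervals for counting error only. Ratios are above 1 for 5 genes in both genotypes, and Serpina3g is at 0.792 in WT and 1.89 in deficient Tregs.

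Promoter sequences are shown for the 4 members whose windows held a match to 1 of 3 motifs of immune transcription factors, which describes the letters and not binding. The motifs were searched on both strands. RefSeq windows of 300 bases (250 before to 50 after the start, GRCm38.p6) were matched for 5 of the 6 genes, all but Serpinb1a, and gave 7 windows. The STAT motif TTCNNNGAA occurs in 8.30% of all 32851 promoter windows, the interferon-response core (GAAA, any 2 bases, GAAA) in 3.44% and the NF-kappaB consensus in 4.51%. Serpina3g held TTCCCAGAA, starting 33 bases before the start, and an NF-kappaB match, GGGGGTTTCC, starting 85 bases before it. Serpina3f held TTCCTAGAA at 1 site that lies in both of its overlapping windows, 121 bases before the start in the one shown. Serpinb9 held TTTCACTTTC, an interferon-response core on the other strand, 46 bases before the start. Of the 2 windows of Serpinb6a, the one shown held TTCCGGGAA at 2 places, the first overlapping an interferon-response core on the other strand, TTTCGATTTC. The other Serpinb6a window and that of Serpinb6b held none of the 3. Capitals mark the matches.
Serpina3g, chr12:104235897-104236196, plus strand: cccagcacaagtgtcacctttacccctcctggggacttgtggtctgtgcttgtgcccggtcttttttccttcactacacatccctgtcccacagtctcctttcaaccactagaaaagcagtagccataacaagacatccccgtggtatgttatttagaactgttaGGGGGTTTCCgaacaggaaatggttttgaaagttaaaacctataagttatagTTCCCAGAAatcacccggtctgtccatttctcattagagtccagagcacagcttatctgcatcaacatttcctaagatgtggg
Serpina3f, chr12:104214294-104214593, plus strand: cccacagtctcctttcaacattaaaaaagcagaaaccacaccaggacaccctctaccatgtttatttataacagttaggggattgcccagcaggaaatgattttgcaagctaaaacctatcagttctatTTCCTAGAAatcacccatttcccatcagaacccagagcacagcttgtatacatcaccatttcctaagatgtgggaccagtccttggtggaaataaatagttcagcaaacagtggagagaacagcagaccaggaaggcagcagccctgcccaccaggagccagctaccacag
Serpinb9, chr13:33004291-33004590, plus strand: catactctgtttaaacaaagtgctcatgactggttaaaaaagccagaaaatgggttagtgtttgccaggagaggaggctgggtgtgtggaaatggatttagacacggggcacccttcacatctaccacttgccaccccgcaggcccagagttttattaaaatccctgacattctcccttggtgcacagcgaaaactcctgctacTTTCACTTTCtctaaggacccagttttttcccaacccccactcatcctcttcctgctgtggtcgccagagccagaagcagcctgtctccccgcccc
Serpinb6a, chr13:34002745-34003044, minus strand: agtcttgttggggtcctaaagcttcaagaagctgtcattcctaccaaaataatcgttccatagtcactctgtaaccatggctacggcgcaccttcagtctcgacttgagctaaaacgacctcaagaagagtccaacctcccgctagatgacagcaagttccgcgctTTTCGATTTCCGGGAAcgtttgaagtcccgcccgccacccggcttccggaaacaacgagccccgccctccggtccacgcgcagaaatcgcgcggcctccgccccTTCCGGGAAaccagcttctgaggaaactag

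The patterns of the members were also compared with each other and with all genes, as the Euclidean distance between log2 CPM centred on each gene's mean over the 4 libraries. A distance over 4 libraries is a description, and many genes lie close. Serpinb6b and Serpinb9 were the closest members, at 0.26, whereas Serpina3g was 1.35 to 1.71 from each of the other 5. Among 9650 genes with a mean of at least 5 CPM, the nearest to Serpina3g were the replication kinase gene Cdc7 (0.18), 4930430F08Rik (0.19) and Far1 (0.24). Serpina3f lay nearest to Ilk, Ptma and Txnl4a (0.03 to 0.04), and Serpinb9 to Stx8, Hmgb2 and Ubash3a (0.05 to 0.07). The nearest to Serpinb6b were Trbv3 (0.07), Acot7 (0.11) and 1200016B10Rik (0.12), and to Serpinb6a Gm9800 (0.11), Trav12-3 (0.22) and Zfyve28 (0.23). For Serpinb1a they were Ms4a6d (0.14), Pgcp (0.20) and Tktl1 (0.21). On uniquely placed reads 2 of these 3 remained among the nearest for Serpina3g, 0 for Serpina3f and 1 for each clade B member.

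Of the 61 other serpin genes, 41 had 0 reads in all 4 libraries, 17 had 1 to 41 reads in all and did not pass the filter, and 3 were tested. None of these 3 was called between genotypes by edgeR, DESeq2 or limma-voom, and 0 had an edgeR p below 0.05 before adjustment, while edgeR called 0.144% of all genes. Serpini1, the gene of neuroserpin, had 63 and 71 exon reads in WT and deficient spleen, and 78 and 183 in the lymph node, a log2 difference of 0.85 ± 0.46 (SE, n = 2 per genotype, edgeR adjusted p = 0.89). It rose in the lymph node by 1.48 ± 0.46 (edgeR adjusted p = 0.0211), a call that was lost without the tissue fit's genotype term (edgeR adjusted p = 0.0609) and without either spleen library or the deficient lymph node library (0.0732 to 0.326). Serpinc1, the antithrombin gene, had 38 (WT) and 26 (deficient) spleen reads, and 94 and 47 from the lymph node. Serpina9, known from germinal centre B cells, had 12 and 10 spleen reads, and 4 and 14 from the lymph node.

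Genes of proteases that the serpins are known to bind were taken from lists of named genes that also hold genes of other proteins. One list held granule genes of neutrophils and related cells, not all of them proteases. None of its 6 genes in the tables, among them Elane, Prtn3 and Ctsg, had a read in any library. Of 15 cytotoxic granule genes 7 were tested, and 0 passed edgeR's test between genotypes, beside 0.144% of all genes. Before adjustment 3 had a p below 0.05, and Gzmb alone was called by DESeq2 and by limma-voom. Gzmb, the granzyme B gene, had 104 exon reads (13.2 CPM) in WT and 190 (32.9 CPM) in deficient spleen, and 19 (4.64 CPM) and 476 (104 CPM) in the lymph node. Both deficient libraries were above both WT libraries, as for Serpina3g, and the log2 difference was 2.76 ± 0.67 (SE, n = 2 per genotype, edgeR adjusted p = 0.36). In the same lymph node pair, WT to deficient, the NK and CD8 T cell marker Prf1 had 0 and 26 reads, Eomes 0 and 15 and Klrb1c 5 and 32, while Cd8a had 64 and 39 and Cd8b1 151 and 139. In the spleen pair Prf1 had 24 and 13 reads, Eomes 39 and 10 and Klrb1c 38 and 16. The part of these markers in the Gzmb values was not tested. Serpinb9, the inhibitor of its product, had a log2 ratio of 0.46 in the lymph node pair where Gzmb had 4.39. Between tissues 3 of the 7 granule genes rose in the lymph node, Srgn, Nkg7 and Fasl, beside 23.3% of all genes. None of these 3 is a granzyme gene. The Fasl call (edgeR adjusted p = 0.0407) was lost with upper-quartile scaling (0.0631), with DESeq2 (adjusted p = 0.0647) and without the WT or the deficient spleen library (0.256 and 0.238). Lamp1 had a log2 difference of -0.68 ± 0.28 (edgeR adjusted p = 0.0736).

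Of 21 cathepsins, cystatins and related lysosomal genes 16 were tested. No call was made between genotypes by edgeR (0 of 16, 1 with p below 0.05 before adjustment), DESeq2 (0) or limma-voom (0). Ctsb, the gene of cathepsin B, a known target of Serpina3g, had 256 and 265 CPM in WT and deficient spleen, and 378 and 975 CPM in the lymph node, a log2 difference of 0.71 ± 0.28 (SE, n = 2 per genotype, edgeR adjusted p = 0.89). Its log2 ratio of deficient to WT was 0.05 for spleen and 1.37 for lymph node, where Serpina3g had 0.49 and 1.75. Between tissues 12 of the 16 rose in the lymph node and 0 fell, beside the 23.3% of all genes called higher. The 12 were Ctsa, Ctsb, Ctsc, Ctsd, Ctse, Ctss, Ctsw, Ctsz, Lgmn, Cst3, Cst7 and Cstb. Ctss rose by 2.46 ± 0.18 and Ctsd by 1.71 ± 0.20 on the log2 scale (SE, n = 2 per tissue, edgeR adjusted p = 3.92e-06 and 4.48e-05). Without the WT spleen library, in a fit without the genotype term, the calls of Ctsb, Ctse and Lgmn were lost, with edgeR adjusted p = 0.133, 0.14 and 0.123. They were also lost without the deficient spleen library (0.103, 0.172 and 0.277). With all 4 libraries and no genotype term Ctsb lost its call (edgeR adjusted p = 0.0664), and without the deficient lymph node library its log2 difference was 0.49, against 1.22 as fitted. Monocyte and macrophage markers summed to 14.3 and 10.6 CPM in WT and deficient spleen and to 46.2 and 312 CPM in the lymph node, with Lyz2 at 45.7 and 283 CPM in the latter pair. Their part in the cathepsin and cystatin values was not tested.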

How the data were processed

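RNA from 4 libraries of Tregs was sequenced on a MiSeq. The deposited tables give counts, unnormalized total and uniquely placed exon reads per gene, per the file headers. Per the submitters' processing notes, CASAVA 1.8.2 was used and the build was mm9; no source used here gives aligner settings. Genes were filtered with filterByExpr by genotype, scaled by TMM and fitted with edgeR 4.0.16 (quasi-likelihood, R 4.3.3) on genotype and tissue, with Benjamini-Hochberg adjustment over 11113 genes and a threshold of 0.05. The replicate number names the tissue in the labels, so the tissue term pairs the libraries. Deviations of same-numbered libraries correlated at 0.783. With 2 libraries per genotype this value is the same for both numbers by construction. It cannot tell a difference of tissue or kit from a pairing of animals. The fit leaves 1 residual degree of freedom, so a difference between tissues in the genotype effect could not be tested. Log2 ratios of pairs used a prior count of 2. Nothing says that libraries came from separate animals, so p-values do not measure the spread between animals. They rest on what genotype and tissue leave unexplained in these libraries, which edgeR moderates with the values of all genes tested. The SE beside an edgeR log2 difference is its absolute value divided by the square root of the test's F. Depth was 4737814 to 6750695 exon reads; 95% exact binomial (Clopper-Pearson) intervals cover counting error only. The script for the fit was tested on simulated data, with larger changes than the serpins had and less spread than was fitted here. That run checks the code and does not show how well changes of the serpins' size are found. Alternatives were other scalings, filters and read classes, DESeq2 1.42.0, limma-voom (limma 3.58.1), no replicate block and each library left out.

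The 6 serpins and the gene lists were chosen with earlier results of these data known. Beside the 6 serpins, the text names the other tested serpins, Csnk2b and Foxp3, the 4 most abundant genes of each list and any list gene past the threshold, and the 3 genes nearest to each serpin. Members whose genotype values chose them have no test for genotype.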

Additional observations from a re-analysis of the deposited data

Results flagged for a closer look

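These results moved in opposite directions in the 2 genotypes or tissues. Each side is 1 library pair, and no difference between them was tested.

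Serpina3g had a log2 ratio of lymph node to spleen of -0.34 in WT and 0.92 in Csnk2b-deficient Tregs, a difference of 1.26. Gzmb went from -1.44 to 1.66 by the same measure, a difference of 3.09. Serpina9, with 4 to 14 reads per library, had -0.49 and 0.72, a difference of 1.21.

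Serpina3f had a log2 ratio of deficient to WT of -0.14 for spleen and 0.30 for lymph node, a difference of 0.446. Nkg7 had 0.67 and -1.40, a difference of -2.07, and Ctsw 0.56 and -0.32, a difference of -0.886. Ctsz had -0.09 and 0.34, a difference of 0.436. Ctsd had -0.14 and 0.22, a difference of 0.364. Cstb had -0.08 and 0.26, a difference of 0.347.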

How the results depend on the processing

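The number of genes that edgeR called between genotypes depended on the settings. It was 16 as reported, 4 with median-of-ratios size factors, 111 with no filter except 0 reads, 7 on uniquely placed exon reads and 0 with no replicate block, where 29 genes had an unadjusted p below 0.05. DESeq2 called 50 and limma-voom 60. Leaving out each library in turn, in fits that also lack the block, gave 0 to 1. Between tissues 5050 genes were called as reported, and leaving out each library in turn, with tissue as the only term, gave 2186 to 7874, with 2186 and 2322 without the WT and the deficient spleen library and 7874 without the deficient lymph node library. For the tissue contrast, where the replicate number is the tissue itself, the alternative to the paired fit had tissue as its only term, without genotype, and called 4662 genes. Upper-quartile scaling shifted the tissue median of all genes by -0.15 on the log2 scale, and the calls of Serpinb6a, Serpinb6b and Serpinb9 held there. No called result changed direction under the alternatives run. The cause of these changes was not tested. Alternatives on gene reads, junction reads and nearest genes on unique reads were chosen after seeing the data. Depth limits Serpinb1a, with 9 to 41 reads per library, and the junction reads of Serpina3f.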
